A study of Mus musculus with 4 samples.

Results

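Chloride transporters, glycine receptor subunits and gephyrin set how a neuron responds to glycine and GABA. The 7 genes described here are Slc12a2 and Slc12a5, which code for the cotransporters NKCC1 and KCC2, Glra1, Glra2 and Glra3, which code for alpha subunits of the glycine receptor, Glrb, which codes for its beta subunit, and Gphn, which codes for the scaffold gephyrin. They were chosen by name, as 7 of the 31053 genes of the deposited matrix, and all 7 were found. Levels were described across the 9 classes, 35 subtypes and 4 ages of the deposited annotation, over 9724 nuclei.

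Single-nucleus RNA sequencing (3′ tags with unique molecular identifiers, UMIs) was carried out on microdissected superior colliculus, the midbrain structure that receives retinal and other sensory input. All animals were C57BL/6J mice with no genetic change or treatment named, taken at embryonic day 19 (E19) and at postnatal days 4, 8 and 21 (P4, P8 and P21). Each age was 1 library of nuclei pooled from several animals, so no difference between ages has a replicate check and no test between ages was made. The libraries held 2249 to 2585 nuclei each, and the median nucleus held 6828 UMIs in the youngest library, then 9044.5, 9672 and 11745 with age.

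NKCC1 carries chloride into cells and KCC2 carries it out, so their balance sets whether opening a chloride channel depolarises or hyperpolarises a neuron. Immature neurons are known for high internal chloride, and KCC2 is known to increase with maturation in many brain regions. Glycine receptors are chloride channels built from alpha and beta subunits; receptors with the alpha2 subunit are known as the fetal form, which alpha1 replaces after birth in spinal cord and brainstem. The beta subunit binds gephyrin, which holds glycine receptors and many GABA-A receptors at inhibitory synapses.

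Levels are UMIs summed over the nuclei of a class in a library, given as counts per 1000000 UMIs of that sum (CPM). Intervals are exact 95% intervals (Poisson for CPM, Clopper-Pearson for shares, conditional binomial for folds) and cover counting error only, neither the spread between animals nor that between preparations. A level in nuclei can reflect how many nuclei hold a transcript or how much each holds. A gene counted as higher or lower at P21 where the P21 and E19 libraries differed by at least 1.5-fold with 5 CPM added to both, and the higher library had at least 20 CPM. The classes are the authors' clusters of these same nuclei, so values of excitatory and inhibitory neurons are set side by side as a description.

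The labels were compared with marker genes first. Summed glutamate transporter genes (Slc17a6 and Slc17a7) reached 178.6 to 286.2 CPM in excitatory neurons and 8.49 to 46.3 in inhibitory neurons. At P8 the 21 microglia nuclei had 184.4 CPM of these genes, next to 183.2 in excitatory neurons. Summed Gad1, Gad2 and Slc32a1 reached 680 to 950 CPM in inhibitory neurons and 34.6 to 58.6 in excitatory neurons. Between 23.6% and 27.9% of neurons per library held UMIs of both transmitter types. The class labelled epithelial, with 13 to 40 nuclei per library, did not have the highest sum of Ttr, Foxj1 and Folr1 at any age, at 0 to 110.9 CPM, and held 638 to 1083 CPM of vascular leptomeningeal markers. The class labelled vascular leptomeningeal, with 36 to 139 nuclei per library, had a higher summed CPM of astrocyte markers than any other class at E19, P4 and P8. The mix of sexes differed between libraries: a UMI of Xist was found in 0.967%, 46.0%, 40.7% and 68.1% of nuclei in age order. This touches Glra2, which lies on the X chromosome, and its values are given below with and without nuclei that hold Xist. Of the barcodes, 3 to 5 per library also occurred in another library.

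Across the 7 genes, the glycine receptor subunits differed between E19 and P21 in both neuron classes, and the transporters did not pass 1.5-fold. Glra1, Glra3 and Glrb were higher at P21 and Glra2 was lower, in excitatory and in inhibitory neurons alike. In excitatory neurons 3 of 7 members were higher and 1 of 7 lower, where 12.8% and 21.5% of 7650 tested genes were. In inhibitory neurons the same 3 were higher and the same 1 lower, where 14.6% and 21.4% of 7807 tested genes were. The median log2 ratio of the 7 members was 0.54 in excitatory and 0.47 in inhibitory neurons, and the median over all genes tested was -0.06 and -0.04. With 7 genes these shares move in large steps, and nothing about the group as a group is read from them.

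**Figure D1:**
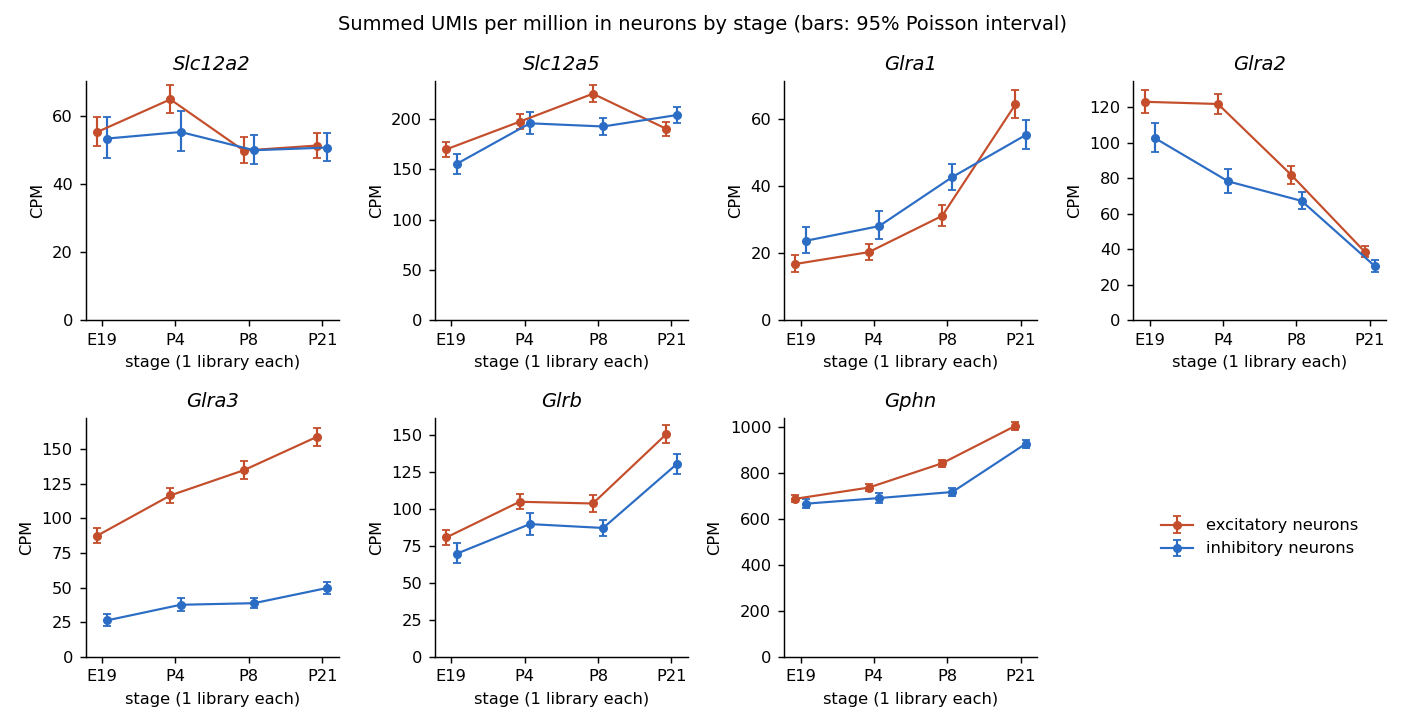
Levels of the 7 genes in excitatory (red) and inhibitory (blue) neurons at each age, in CPM on linear axes that start at 0, with 1 point per library and exact 95% Poisson intervals. Glra2 was lower at P21 than at every earlier age in both classes (38.5 and 30.3 CPM), Glra1, Glra3, Glrb and Gphn were highest at P21, and Slc12a2 stayed between 49.8 and 64.9 CPM.

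Among the transporters, Slc12a5 was the one with a higher level in neurons than in all other classes together. Its summed level in excitatory neurons at E19 was near its P21 value. In excitatory neurons Slc12a5 was 170.0, 197.6, 225.5 and 190.5 CPM across E19, P4, P8 and P21, where the E19 interval was 162.6 to 177.7. The highest excitatory value was thus the P8 library, and P21 was 1.12-fold above E19 (interval 1.06 to 1.19). In inhibitory neurons Slc12a5 was 155.5, 196.0, 192.8 and 204.2 CPM in age order, with P21 1.31-fold above E19 (interval 1.22 to 1.42). Excitatory neurons were 1.09-fold above inhibitory neurons at E19 (interval 1.01 to 1.18), and at P21 inhibitory neurons were 1.07-fold above excitatory ones (interval 1.01 to 1.13).

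Slc12a5 in all other classes together was 36.4, 46.6, 33.8 and 25.7 CPM over the 4 ages. Neurons were 4.53-, 4.23-, 6.23- and 7.66-fold above them at the same ages. UMIs of neuronal genes were also counted in those classes: summed Rbfox3, Snap25 and Syt1 were 307 to 364 CPM in astrocytes, against 1728 to 3542 CPM in the neuron classes, and their part in the Slc12a5 level of glia was not tested.

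Within subtypes, the median Slc12a5 ratio between P21 and E19 was larger in inhibitory than in excitatory neurons. Of the 23 neuron subtypes with at least 20 nuclei in both libraries, 19 had more Slc12a5 at P21, and in 10 the interval of the fold excluded 1. The median log2 ratio was 0.32 over 11 excitatory subtypes and 0.79 over 12 inhibitory subtypes. IN7 had the largest ratio, at 1.72, and EN8 the smallest, at -0.15. Past 1.5-fold, which for subtypes is counted with 5 CPM added and no minimum level, were 8 of 12 inhibitory subtypes and 1 of 11 excitatory subtypes (EN6, log2 ratio 0.67). With all inhibitory subtypes given the same weight the class ratio was 0.62, past 1.5-fold, against 0.38 for summed nuclei. The order of subtypes was shallow: means over libraries ran from 139 CPM in IN7 to 219 in EN10, a 1.57-fold range. At P21 levels ran from 160 CPM in EN8 to 255 in IN6. None of 22 neighbouring pairs in that order had intervals that did not overlap, which bears on neighbours only.

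KCC2 is known as a pair of isoforms, KCC2a and KCC2b, with different first exons, and RefSeq lists 2 start sites for Slc12a5. Their upstream sequences (GRCm38.p6, plus strand, 5′ to 3′) are shown because every Slc12a5 level above sums over both. The 3′ tags counted here cannot tell which start a transcript used. The windows were trimmed to bases outside annotated exons, at chr2:164960596-164960801 for the first and chr2:164967738-164967982 for the second. Capitals mark the motifs found in a search of both strands, which do not overlap each other. The E-box is read as CACGTG. The letters searched for the AP-1 site were TGACTCA. The GC box was searched with CCCGCCC.
Slc12a5 first start: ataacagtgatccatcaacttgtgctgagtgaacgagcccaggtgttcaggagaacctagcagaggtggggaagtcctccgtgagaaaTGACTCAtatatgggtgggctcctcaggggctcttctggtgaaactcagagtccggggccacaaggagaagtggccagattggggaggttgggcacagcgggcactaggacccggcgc
Slc12a5 second start: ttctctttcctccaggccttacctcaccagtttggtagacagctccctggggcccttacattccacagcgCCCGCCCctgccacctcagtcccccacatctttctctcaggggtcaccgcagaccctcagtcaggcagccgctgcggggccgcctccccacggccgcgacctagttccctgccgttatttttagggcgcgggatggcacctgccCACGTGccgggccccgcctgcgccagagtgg

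The first window held 1 AP-1 match and its GC content was 57.3%. The second held 1 E-box and 1 GC box and its GC content was 66.5%. Among 32851 RefSeq windows of 250 bases before a start, 6.02% held the E-box, 4.46% the AP-1 letters and 23.4% the GC box, on either strand. A match describes the letters of a window and shows no binding.

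Slc12a2 in neurons lay between 49.8 and 64.9 CPM in both classes, with the highest value in excitatory neurons at P4 and the lowest at P8. In excitatory neurons Slc12a2 was 55.2, 64.9, 49.8 and 51.3 CPM across E19, P4, P8 and P21. Inhibitory neurons had 53.3, 55.3, 49.9 and 50.7 CPM at the same ages. The P21 library was 0.93-fold the E19 library in excitatory neurons (interval 0.83 to 1.03) and 0.95-fold in inhibitory neurons (interval 0.83 to 1.09), so the intervals bound any difference between these libraries to under 1.5-fold. Of 23 subtypes, 16 had more and 7 had less Slc12a2 at P21, and in none did the interval of the fold exclude 1. In EN11 at P21, which fell short of 20 nuclei at that age, 29 of 42 UMIs came from 1 nucleus.

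The balance of both transporters does not depend on the scaling, since both are counted in the same nuclei. The log2 ratio of Slc12a5 to Slc12a2 UMIs in excitatory neurons was 1.62, 1.61, 2.18 and 1.89 in age order. The inhibitory ratios were 1.54, 1.83, 1.95 and 2.01. The P21 ratio exceeded the E19 ratio by 0.27 in excitatory and by 0.47 in inhibitory neurons. In excitatory neurons this difference was 0.67 when every nucleus was thinned to 2300 UMIs. The ratio was higher at P21 in 9 of 11 excitatory and in 8 of 12 inhibitory subtypes, but in 1 subtype only, IN7, did the E19 and P21 intervals not overlap.

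Outside neurons, Slc12a2 was at its highest in oligodendrocytes at P21. In the oligodendrocyte lineage as a whole it was 50.9, 83.6, 84.5 and 709.9 CPM over the 4 ages, with P21 8.40-fold above P8 (interval 6.52 to 11.0). The makeup of this lineage differed between the libraries, with precursors making up 97.9% of it at E19 and 20.9% at P21, and myelinating oligodendrocytes 61.1% at P21. The difference was also found within a subtype: committed oligodendrocytes had 85.7 CPM at P8 (18 UMIs in 33 nuclei) and 830 at P21 (403 UMIs in 55 nuclei), a 9.68-fold difference (interval 6.05 to 16.5).

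Myelinating oligodendrocytes at P21 had 794 CPM of Slc12a2 (interval 750 to 839). Precursors had 52.5, 71.3, 82.0 and 76.8 CPM across E19, P4, P8 and P21, so at P21 committed and myelinating nuclei together were 10.4-fold above precursors of the same library (interval 6.94 to 16.5). At least 1 Slc12a2 UMI was found in 184 of 187 myelinating nuclei at P21. The share over the whole lineage at P21 was 82.4% (66.7% with each nucleus thinned to 2300 UMIs, median depth 7253), against 18.1% of astrocytes of that library (8.71% thinned, median depth 5525). Slc12a5 was the other way round within the lineage at P21, with precursors 4.43-fold above committed and myelinating nuclei (interval 2.47 to 7.80).

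**Figure D2:**
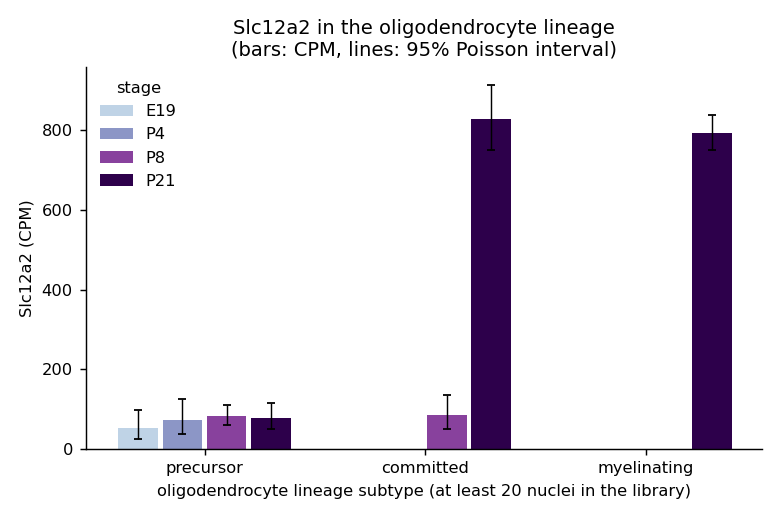
Slc12a2 in the 3 subtypes of the oligodendrocyte lineage, in CPM on a linear axis from 0, with bars for libraries that held at least 20 nuclei of the subtype and lines for exact 95% Poisson intervals. Precursors stayed at 52.5 to 82.0 CPM at all 4 ages, and committed and myelinating oligodendrocytes at P21 stood at 830 and 794 CPM.

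Another 3 non-neuronal classes held more Slc12a2 than neurons at every age. Nuclei labelled epithelial had 307 to 622 CPM, with the marker values given above. Microglia had 165 to 212 CPM and endothelial cells 113 to 324 CPM, the latter from 12 to 22 nuclei per library. Astrocytes, at 39.4 to 56.1 CPM, were near the neuron level.

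**Figure D3:**
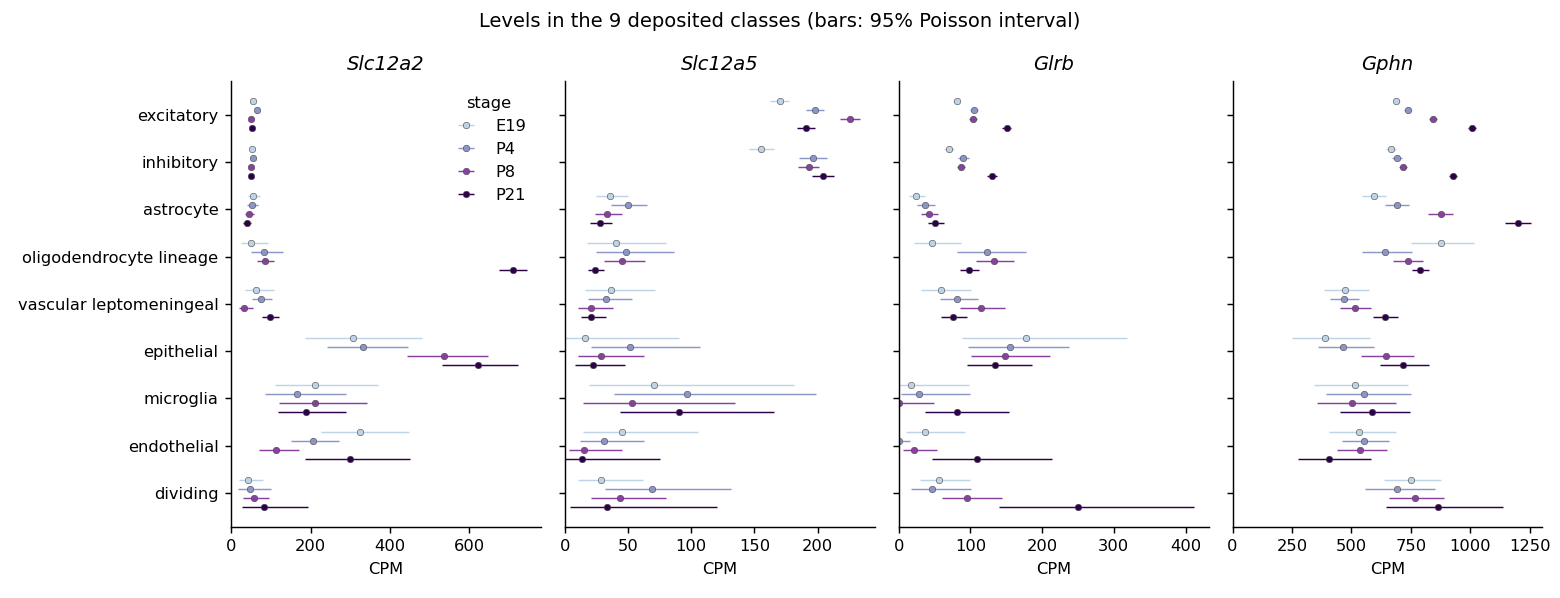
Slc12a2, Slc12a5, Glrb and Gphn in the 9 deposited classes, in CPM on linear axes from 0, with 1 point per library and exact 95% Poisson intervals. Slc12a5 lay above 150 CPM in the neuron classes and below 100 in the other classes, and Slc12a2 reached 709.9 CPM in the oligodendrocyte lineage at P21.

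Of the alpha subunit genes, 1 was lower at P21 and 2 were higher. Glra2, the gene of the fetal alpha2 subunit, was 123.0, 121.7, 81.7 and 38.5 CPM across the ages in excitatory neurons. The sums of the first and second libraries were level, and E19 was 3.19-fold above P21 (interval 2.89 to 3.52). The mix of subtypes differed between the first libraries. Subtype EN7 held 108 of 1418 excitatory Glra2 UMIs at E19 (33 nuclei) and 675 of 1813 at P4 (191 nuclei). The class sum thus does not show at which age the other excitatory subtypes dropped. In inhibitory neurons Glra2 was 102.5, 78.1, 67.1 and 30.3 CPM in age order, with E19 3.38-fold above P21 (interval 2.95 to 3.87). For these class sums, the inhibitory intervals of E19 and P4 were apart, and the excitatory ones overlapped.

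Because the E19 library was almost without Xist, Glra2 was counted again in nuclei with a Y-linked UMI and none of Xist. In these it was 126.7, 120.5, 74.0 and 40.1 CPM over the 4 ages in excitatory neurons, and 104.7, 73.2, 70.2 and 26.7 in inhibitory neurons. Nuclei with Xist and no Y-linked UMI had 38.6 CPM at P21 if excitatory and 32.3 CPM if inhibitory, with intervals that overlapped those of the Y-linked nuclei. The difference between E19 and P21 was thus as large in nuclei that hold Y-linked UMIs.

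The drop of Glra2 was found in nearly every neuron subtype. Of 23 subtypes, 22 had less Glra2 at P21, 20 of them past 1.5-fold, and in 17 the interval of the fold excluded 1. EN6 was the exception, with a log2 ratio of 0.34 from low levels. The largest drops were in IN10 (-2.77, from 9 UMIs at E19 and 1 at P21) and EN10 (-2.73, from 48 and 10 UMIs). With so few UMIs their size is uncertain. Among subtypes, EN7 had the highest Glra2 level, 347 CPM at E19 and 243 at P4, and had fewer than 20 nuclei at P8 and P21. Next by mean over libraries were IN6 at 132 CPM (66.6 to 192) and EN3 at 116.3 (64.0 to 155), and EN12 was lowest at 16.1. At P21 levels ran from 2.21 CPM in IN10 to 66.6 in IN6, and none of the 22 neighbouring pairs in the order had intervals apart.

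The sequence upstream of the Glra2 start (RefSeq, GRCm38.p6, minus strand, 5′ to 3′, chrX:165327394-165327643) is shown because Glra2 was the 1 member lower at P21 past the 1.5-fold rule, in both classes. Of the 3 motifs searched only the GC box was found, in capitals, and its GC content was 50.4%.
Glra2 start: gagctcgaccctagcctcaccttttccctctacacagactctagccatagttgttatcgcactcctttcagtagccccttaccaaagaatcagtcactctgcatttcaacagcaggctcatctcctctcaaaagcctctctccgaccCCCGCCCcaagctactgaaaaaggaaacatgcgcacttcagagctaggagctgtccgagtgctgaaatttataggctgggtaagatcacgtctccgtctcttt

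Glra1, the gene of the alpha1 subunit of adult receptors, went the opposite way. In excitatory neurons it was 16.7, 20.3, 31.1 and 64.4 CPM across the 4 ages, from 193 UMIs at E19 and 940 at P21, with P21 3.85-fold above E19 (interval 3.29 to 4.51). Inhibitory neurons had 23.7, 28.0, 42.7 and 55.2 CPM, with P21 2.33-fold above E19 (interval 1.94 to 2.82). Inhibitory neurons were 1.37- to 1.41-fold above excitatory neurons at E19, P4 and P8, and at P21 excitatory neurons were 1.17-fold above inhibitory ones (interval 1.05 to 1.29). Without the subtype IN5, inhibitory neurons had 16.4, 14.8 and 17.5 CPM at E19, P4 and P8, none of them above the excitatory value. Glra1 overlaps the antisense gene Gm12236, and the sources used here do not say whether counting used the strand. Gm12236 had 10 to 56 UMIs per neuron class and library where Glra1 had 141 to 940.

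Much of the inhibitory Glra1 signal came from 1 subtype, IN5. IN5 had 137.5 CPM at E19 (interval 101.7 to 181.8) and 199.7, 257 and 241 CPM at the later ages, from 60 to 121 nuclei per library. All other inhibitory neurons together had 16.4, 14.8, 17.5 and 34.3 CPM over the 4 ages. IN5 was thus 8.37-, 13.5-, 14.7- and 7.04-fold above the other inhibitory neurons. It made up 6.72% of inhibitory nuclei and 34.8% of inhibitory Glra1 UMIs at E19, and 11.1% of nuclei and 63.2% of UMIs at P8.

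Without IN5 the inhibitory log2 ratio between P21 and E19 was 0.87, and with it 1.07. In IN5, 77.8% of nuclei at P21 held a Glra1 UMI (37.0% after thinning, median depth 13287), against 3.48% of astrocytes in that library (2.44% after thinning, median depth 5525). Other neuron subtypes at P21 lay between: 64.5% in EN1 (16.7% after thinning, median depth 23596) and 44.4% in IN10 (16.7%, depth 12088). In IN9 the share was 4.44% (2.22% after thinning, median depth 10699). IN10 came second with a mean of 95.1 CPM (67.2 to 125.9), and IN9 was lowest with 1.44. At P21 only 1 of 22 neighbouring pairs in the order, IN5 and the next subtype, stood apart.

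In excitatory neurons the Glra1 difference was spread over subtypes. Of 11 excitatory subtypes compared, 9 had more Glra1 at P21 with an interval of the fold that excluded 1, and the median log2 ratio over all 11 was 2.15. The other 2, EN12 and EN13, had 10 and 9 UMIs at P21 against 0 and 1 at E19, too few to show a difference. In EN6, EN9 and EN12 no Glra1 UMI was counted at E19, and with these 3 set to 3 UMIs at E19 the median was 2.03. EN6 had 78.5 CPM at P21 and EN9 61.4, and the intervals of their folds began at 4.20 and 3.51. Among 12 inhibitory subtypes 11 had a higher value at P21, and in 5 of them the interval excluded 1, with a median log2 ratio of 0.89 (0.85 with IN9, which had no UMI at E19, set to 3 UMIs). IN3 was the exception, at -0.04.

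Glra3, the gene of the alpha3 subunit, was the member that differed most between the neuron classes. In excitatory neurons it was 87.4, 116.5, 134.7 and 158.9 CPM across E19, P4, P8 and P21. Inhibitory neurons had 26.3, 37.6, 38.7 and 49.7 CPM, so excitatory neurons were 3.32-, 3.10-, 3.48- and 3.20-fold higher at the 4 ages. P21 was 1.82-fold above E19 in excitatory neurons (interval 1.69 to 1.96) and 1.89-fold in inhibitory neurons (interval 1.58 to 2.27). The inhibitory value passes 1.5-fold but not a minimum of 50 CPM in the higher library.

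By subtype, Glra3 was highest in EN12, with a mean of 226 CPM (197.0 to 253), and in EN9, with 215 CPM (164.5 to 289). EN12 had a high level at every age and was the 1 subtype without more Glra3 at P21 (log2 ratio -0.08). The other 22 subtypes had more, 19 of them past 1.5-fold, and among excitatory subtypes the log2 ratio was highest in EN3 (2.10). In 14 subtypes the interval excluded 1. IN12 had 8 Glra3 UMIs at P21 and 0 at E19, too few to show a difference. IN3 was lowest at 12.5 CPM. At P21, 2 of 22 neighbouring pairs in the order stood apart. EN12, highest in Glra3, was the lowest subtype in Glra2.

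**Figure D4:**
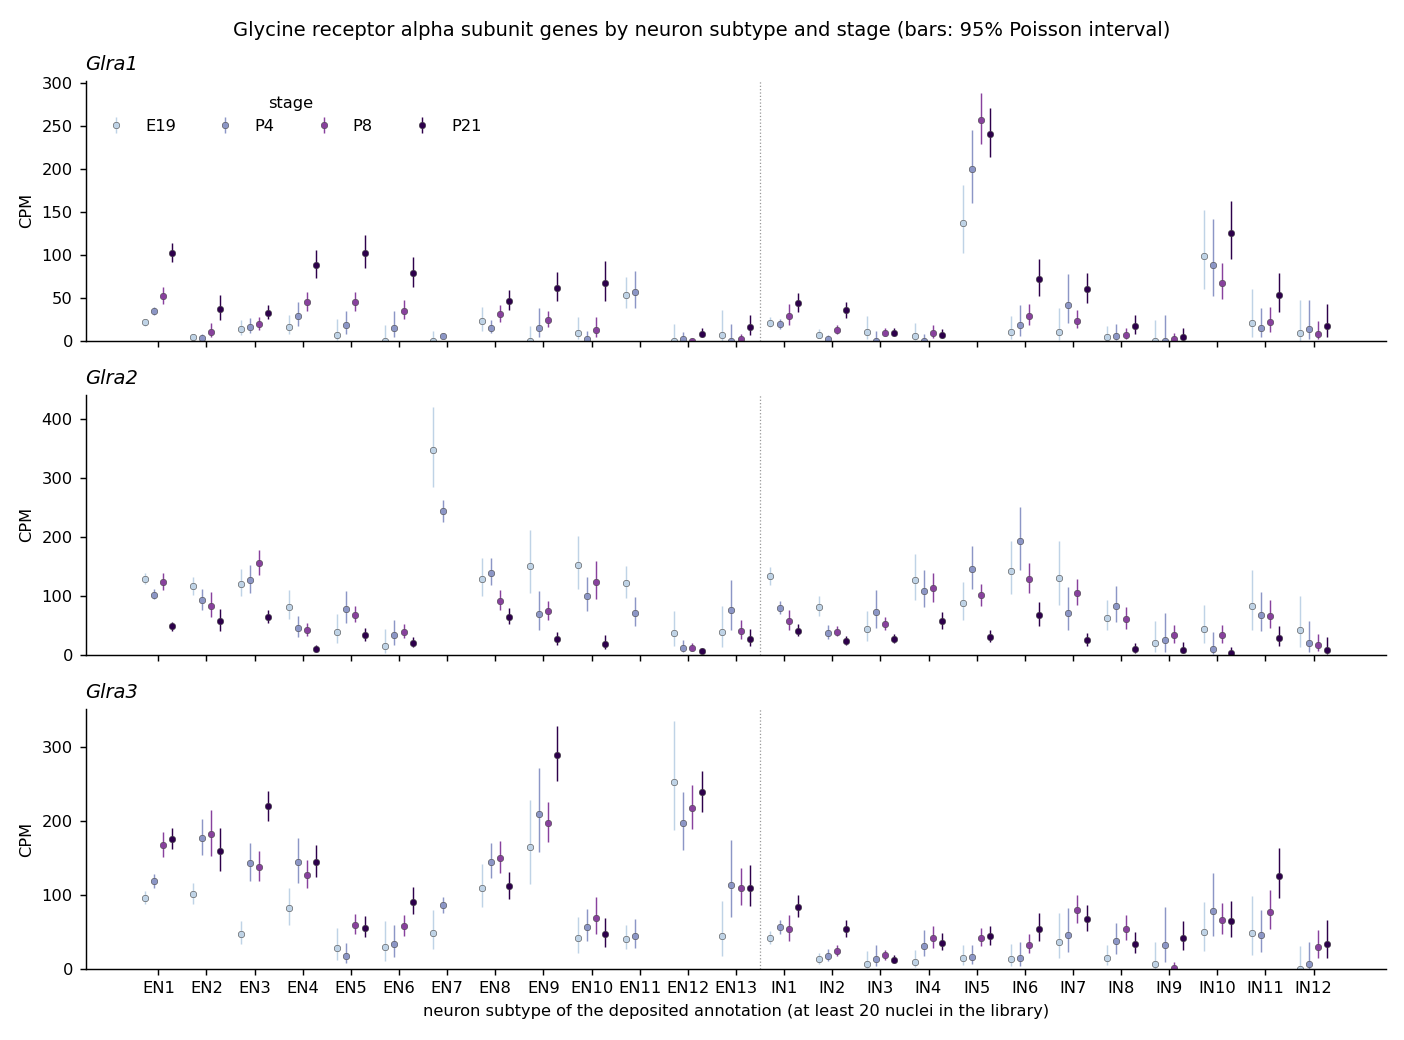
Glra1, Glra2 and Glra3 in the 25 neuron subtypes at each age, in CPM on linear axes from 0, for subtype and library sums of at least 20 nuclei with exact 95% Poisson intervals. Glra1 peaked in IN5 (137.5 to 257 CPM), Glra2 in EN7 (243 and 347 CPM) and Glra3 in EN12 and EN9, and the P21 points of Glra2 were the lowest in most subtypes.

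The balance between alpha subunits differed between ages in both classes. The log2 ratio of Glra1 to Glra2 UMIs in excitatory neurons was -2.88, -2.59, -1.39 and 0.74 in age order. The inhibitory ratios were -2.12, -1.48, -0.65 and 0.86. It was higher at P21 in all 8 excitatory and all 11 inhibitory subtypes with UMIs of both genes at both ages, and in 7 of each the E19 and P21 intervals were apart. The log2 ratio of Glra3 to Glra2 went from -0.49 to 2.04 in excitatory neurons and from -1.96 to 0.71 in inhibitory neurons. Since these genes differ in length, only the change of a ratio is read, and the age at which it crosses 0 is not.

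The share of neurons with a UMI of any of the 3 alpha genes was compared at 1 depth. With each nucleus thinned to 2300 UMIs it was 32.8%, 40.9%, 37.0% and 39.3% of excitatory neurons in age order. The E19 interval (30.3% to 35.4%) lay below those of P4 and P21. The inhibitory shares were 22.8%, 25.7%, 23.3% and 22.2%, with intervals that overlapped between E19 and P21. At this depth a nucleus with both Glra1 and Glra2 was rare, between 0.551% and 1.36% of a class, so the order of subunits within single nuclei was not resolved. The remaining alpha gene, Glra4, stayed under 1 CPM in both neuron classes at all ages.

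Glrb, the gene of the beta subunit that ties glycine receptors to gephyrin, was higher at P21 in both neuron classes by similar folds. In excitatory neurons it was 80.6, 104.8, 103.6 and 150.5 CPM over the 4 ages, with P21 1.87-fold above E19 (interval 1.73 to 2.02). Inhibitory neurons had 69.6, 89.7, 87.1 and 130.1 CPM, with P21 1.87-fold above E19 (interval 1.68 to 2.09). The values came in 2 steps, between E19 and P4 and between P8 and P21, with P4 and P8 level in both classes. Excitatory neurons were 1.16- to 1.19-fold above inhibitory neurons in each library.

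Glrb was higher at P21 in all 23 subtypes, 21 of them past 1.5-fold, and in 18 the interval excluded 1. Its spread between subtypes was small, from 62.7 CPM in IN3 to 129 in EN8. Glrb was also counted outside neurons: non-neuronal nuclei together had 40.4, 58.4, 82.5 and 83.3 CPM across E19, P4, P8 and P21. Committed oligodendrocytes had 224 CPM at P8 (47 UMIs) and 138 at P21 (67 UMIs), 1.62-fold lower at P21 (interval 1.09 to 2.38). Nuclei labelled epithelial had 134.6 to 178 CPM. The alpha genes in all non-neuronal nuclei together stayed below 20 CPM at every age. In committed oligodendrocytes at P8, however, Glra2 was 38.1 CPM (8 UMIs, interval 16.4 to 75.0), with 0 UMIs of Glra1 and 1 of Glra3. At P21 these nuclei held 0 UMIs of Glra2.

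Gphn codes for gephyrin, which also takes part in making the molybdenum cofactor in all tissues. In excitatory neurons it was 688, 736, 842 and 1005 CPM in age order, with P21 1.46-fold above E19 from 14684 and 7931 UMIs. In inhibitory neurons it was 666, 691, 717 and 927 CPM, with P21 1.39-fold above E19 (interval 1.34 to 1.44). Neither passed the 1.5-fold rule. With scaling by the median of ratios both did, at log2 ratios of 0.66 and 0.59. All 23 subtypes had more Gphn at P21, and in 21 the interval excluded 1, with log2 ratios from 0.00 in EN5 to 1.08 in IN12.

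Gphn was not restricted to neurons in these nuclei. Astrocytes had 593 CPM at E19 and 1198 at P21, 2.02-fold higher (interval 1.84 to 2.23). Protoplasmic astrocytes alone went from 609 to 1224 CPM and fibrous astrocytes from 530 to 1041. Over all ages neurons were 1.07- to 1.19-fold above the sum of the other classes. Among subtypes with at least 20 nuclei in all 4 libraries, means ran from 635 CPM in IN4 to 982 in EN4.

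**Figure D5:**
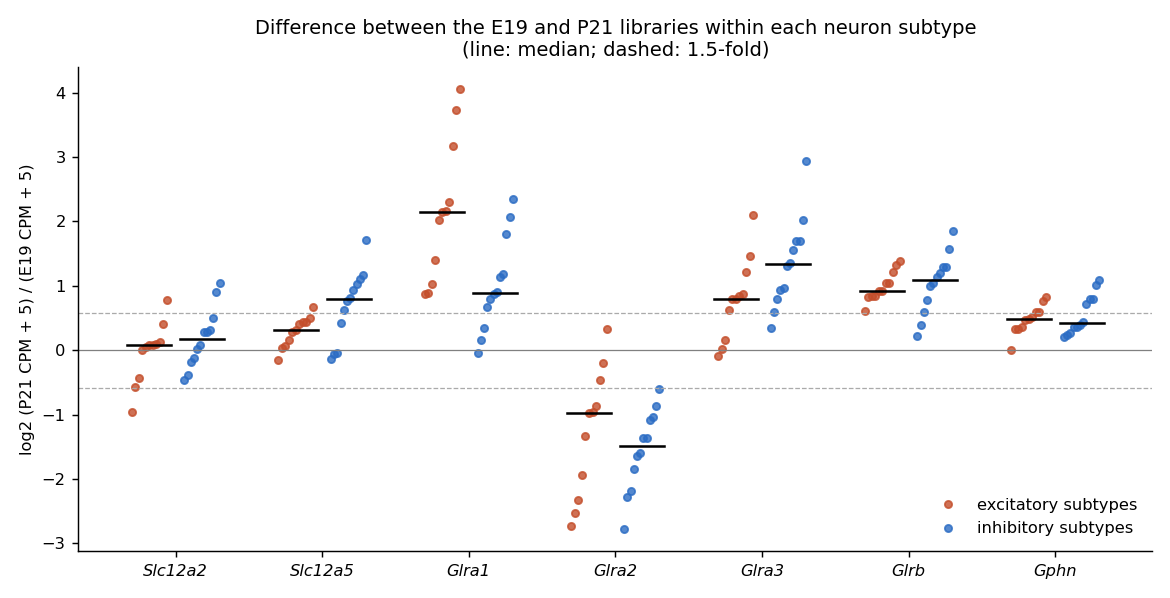
Log2 ratio of P21 to E19 CPM, with 5 CPM added to both, in each of 11 excitatory and 12 inhibitory subtypes with at least 20 nuclei in both libraries, with the median as a black line and 1.5-fold as dashed lines. Glrb and Gphn lay above 0 in all 23 subtypes, Glra2 below 0 in 22, and Slc12a2 on both sides of 0.

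Depth and sex mix moved with age as well: median UMIs per nucleus in excitatory neurons were 8051.5 at E19 and 19601 at P21, and in inhibitory neurons 6075 and 14009.5. With nuclei thinned to 2300 UMIs, and in nuclei with a Y-linked UMI and none of Xist, the 4 differences past 1.5-fold held in both classes.

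In each library, 4 of the 7 members had a higher level in excitatory than in inhibitory neurons at all 4 ages, namely Glra2, Glra3, Glrb and Gphn, where 16.5% of 8209 genes did. None of the 7 was higher in inhibitory neurons at all 4 ages, where 32.6% of genes were. For Glrb and Gphn the excess was under 1.2-fold at each age, and at E19 the Gphn interval included 1 (0.99 to 1.07).

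Levels of different genes can be set side by side only per length. Per kb of the annotated gene, introns included because nuclear RNA was counted, Slc12a5 was highest in excitatory neurons at every age, at 4.37 CPM per kb at E19 and 4.89 at P21. Next at P21 were Gphn (2.19) and Glrb (2.15), then Glra3 (0.838), Slc12a2 (0.753), Glra1 (0.685) and Glra2 (0.194). At E19 the alpha gene with the highest level per kb was Glra2 (0.620), and Glra1 had 0.178. A 3′ assay does not scale with length in full, so this order is approximate.

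The genes lie apart in the genome (GENCODE M21 on GRCm38). Glra1 is at chr11:55514238-55608198 on the minus strand, Glra2 at chrX:165129017-165327393 on the minus strand and Glra3 at chr8:55940460-56130070 on the plus strand. Glrb is at chr3:80843599-80913660 on the minus strand, Gphn at chr12:78226379-78684772 on the plus strand and Slc12a5 at chr2:164960802-164999731 on the plus strand. Slc12a2 is at chr18:57878678-57946821 on the plus strand. Slc12a2, Slc12a5, Glra2 and Glrb overlap no other annotated gene. The small genes and pseudogenes inside Glra3 and Gphn have no row in the matrix.

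Genes around the members were followed through lists chosen by function. The counts below stand beside the shares over all genes tested, 12.8% higher and 21.5% lower in excitatory neurons and 14.6% higher and 21.4% lower in inhibitory neurons. Of 8 genes listed for glycine supply, with the receptor gene Glra4 included, 1 had enough UMIs in inhibitory neurons and none in excitatory neurons. It was Slc32a1, the vesicular transporter of GABA and glycine. Slc32a1 in inhibitory neurons was 110.5, 91.1, 54.8 and 78.2 CPM over the 4 ages. Slc6a5, the neuronal glycine transporter that marks glycinergic neurons, was 6.21, 2.66, 0.180 and 1.33 CPM across E19, P4, P8 and P21 in inhibitory neurons. Its highest subtype level was 14.9 CPM in IN1 at E19, from 18 of 266 nuclei. Slc6a9, the glial glycine transporter, was 152, 123.8, 126.6 and 199 CPM in astrocytes in age order, and 11.0 to 16.7 CPM in the neuron classes.

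Among 16 other chloride carriers and channels, 10 were tested in each class. Slc4a10, a sodium-driven chloride bicarbonate exchanger, was higher at P21 in both: 202 CPM at E19 and 381 at P21 in excitatory neurons, 194.1 and 439 in inhibitory neurons. Clcn4, an endosomal chloride-proton exchanger, was lower in both, at 72.8 and 37.8 CPM in excitatory neurons and 79.8 and 45.7 in inhibitory neurons. Clcn5 was lower in excitatory neurons only by this rule (57.7 and 34.6 CPM), and the difference between classes was not tested. The list's median log2 ratio was -0.20 in excitatory and -0.06 in inhibitory neurons.

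Of 10 regulators of the cotransporters, 8 were tested in each class. Wnk3, a kinase that activates NKCC1 and inhibits KCC2, was lower at P21, at 80.6 CPM at E19 and 44.8 at P21 in excitatory neurons and 85.5 and 51.7 in inhibitory neurons. Neto2, an auxiliary protein that binds KCC2, was also lower, from 133.8 to 50.5 CPM (excitatory) and from 231.7 to 123.3 CPM (inhibitory). Ckb, brain creatine kinase, was the third lower gene in both classes. Cab39l, a scaffold of the kinases below Wnk, was higher in both classes, from 29.4 to 56.8 CPM in excitatory neurons. Stk39, the kinase SPAK that phosphorylates both cotransporters, passed the rule in inhibitory neurons, from 116.2 to 190 CPM. Oxsr1 had a row in the matrix with 0 UMIs in neurons at every age.

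Of 22 postsynaptic partners of gephyrin and inhibitory receptors, 20 were in the matrix by these symbols and all 20 were tested. In excitatory neurons 2 were higher and 7 lower at P21, and in inhibitory neurons 2 were higher and 6 lower. Higher in both were Iqsec3, a gephyrin-binding exchange factor (84.8 to 158.5 CPM in excitatory neurons), and Pacsin1, an endocytic adaptor (211 to 372 CPM). Lower in both were Dynll1, the dynein light chain that binds gephyrin (72.4 to 15.7 CPM in excitatory and 87.4 to 14.6 in inhibitory neurons), and Gabarap, which binds GABA-A receptors (53.5 to 13.7 and 62.2 to 15.4 CPM). Pfn2, a profilin that binds gephyrin, in inhibitory neurons went from 84.0 to 26.5 CPM, and Mdga1, which blocks neuroligin binding, went from 138.9 to 32.6 CPM in excitatory neurons. Of 7 molybdenum cofactor genes, Mocs2 alone was tested, in inhibitory neurons, and did not pass.

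Genes with the most similar pattern were ranked by Pearson correlation of log2(CPM + 5) over 96 subtype and library sums, among 7081 genes. The sums share libraries and depth, so r is a description. Nearest to Glra1 was Gm12239 (r = 0.73), an antisense-type gene 164 kb away on the same chromosome, followed by Esrrg and Dcc. Gm12239 too was highest in IN5, with a mean of 104.5 CPM (72.4 to 158.3). It was the 1 of 21 ranked genes on its member's chromosome. Nearest to Glra2 were Scml4 (0.69), Kcnk10 and Vgll4, and to Glra3 Epb41l4b (0.76), Gpr149 and Adam23.

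Nearest to Slc12a5 were Ptprn (0.69), Cit and Eno2, the gene of neuronal enolase. Slc12a2 had no close neighbour in neurons, with Col4a1 (0.47), Col4a2 and Sphkap first. Glrb was nearest to 5330434G04Rik (0.77), Dennd4a and C230004F18Rik, and Gphn to C230004F18Rik (0.74), Grin1 and Sclt1. Among the members themselves the highest value was that of Glrb and Gphn (0.61) and the lowest that of Glra2 and Gphn (-0.44), while Slc12a2 and Slc12a5 had 0.00.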

How the data were processed

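The deposited matrix held UMI counts per gene and nucleus, not normalised, made by the authors with Cell Ranger 3.0.2 against mm10, per the submitters' processing notes. The reference was a pre-mRNA one, per the series' design text, so introns were counted. A deposited table gave age, class, subtype, UMI totals and the percent of mitochondrial and ribosomal protein UMIs of each nucleus, as the authors computed them; the percent values were not used. Strand, annotation release, filters on nuclei, doublet removal and the naming of classes: not given in the sources used here. No doublet caller was run. The deposited UMI totals equalled those recomputed from the matrix, and 7 further columns of that table were not used. The protocol text abbreviates the embryonic day differently from the sample titles, and E19 was used.

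UMIs were summed per class or subtype and library (subtypes: at least 20 nuclei), scaled to CPM and compared as log2 ratios with 5 CPM added, which understates the change of low genes. Python 3.11.15, numpy 2.4.6, scipy 1.17.1, pandas 2.3.3 and matplotlib 3.10.9 were used, and the sums and intervals were tested on simulated data. Named besides the members are Glra4, Slc6a5, Slc6a9, Slc32a1, up to 3 genes per list, class and direction with the largest change, and the 3 genes of most similar pattern per member. Members and lists were chosen with earlier results of these data known. IN5, EN11 and the position of Gm12239 were picked once their values had been seen. Promoter sequences were found for 5 of 7 members.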

Additional observations from a re-analysis of the deposited data

How the results depend on the processing

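The 4 differences past 1.5-fold (Glra1, Glra3, Glrb and Glra2) were recomputed in both classes with 1 or 20 CPM added, with median-of-ratios scaling, with subtypes or nuclei weighted alike, with thinning to 2300 UMIs, with neurons classed by their own transmitter UMIs, without nuclei of mixed transmitter UMIs, without EN7 and in nuclei with a Y-linked UMI and none of Xist. Leaving out EN7 could change excitatory sums only. Leaving out IN5, chosen after seeing the data, was done for inhibitory neurons only. Each difference kept its direction and side of the threshold, except Glra3 in inhibitory neurons with a minimum of 50 CPM, as given above. Median-of-ratios scaling moved the median of all genes by 0.05 in excitatory and 0.07 in inhibitory neurons. The Slc12a5 to Slc12a2 difference in excitatory neurons, 0.27, was 0.67 after thinning and 0.47 in nuclei with a Y-linked UMI and none of Xist, and the cause was not tested. In those nuclei 1 member (Glra1) was higher in inhibitory neurons at all 4 ages, against 0. With 1.5-fold required in each library, 1 member (Glra3) was higher in excitatory neurons at all 4 ages, against 4. No paired analysis was possible because each age had 1 library and the labels carry no replicate numbers. Low counts widen the intervals of small classes, such as the endothelial class with 12 to 22 nuclei per library.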
